A study of Mus musculus with 21 samples.

Results

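The 10 genes described here make and move the acylceramides of the skin barrier: Elovl4, Cers3, Cyp4f39, Pnpla1, Ugcg, Abca12, Nipal4, Alox12b, Aloxe3 and Sdr9c7. They were taken by name from the 49315 Ensembl genes of the deposited tables, and all 10 matched 1 identifier each. Total RNA of mouse epidermis was sequenced, with 3 samples in each of 7 groups that the labels name by genotype and age. Counts were present in 8 of the 21 files. These were 3 libraries of strain-specific controls (genotype WT, 6 months old), 3 of K14CreTfap2afl/flTfap2bfl/fl mice (6 months old), called here the libraries labelled as double knockouts, and 2 of K14CreTfap2bfl/fl mice (3 weeks old), called the Tfap2b knockout libraries. In K14Cre mice the Krt14 promoter drives Cre in basal keratinocytes. Floxed alleles are cut out there and in the cells that descend from them, while other cell types in the sample keep them. The labels do not say whether the WT mice carried K14Cre or floxed alleles, nor whether 1 mouse or several gave a sample. In the other 13 files every gene was listed at 0, among them all controls at 3 weeks.

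The water barrier of the skin is a stack of lipid sheets between dead cornified cells, laid down by granular keratinocytes as they die. Its characteristic lipid is acylceramide, in which an ultra-long fatty acid carries linoleate at its far end. The linoleate is oxidized by epidermal lipoxygenases, after which the ceramide can be bound to the protein envelope of the cornified cell. Loss of any of several of these genes causes ichthyosis in humans or a lethal barrier defect in mice.

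The 8 libraries held 11318181 to 17746284 counts, and each of the 10 genes held 621 to 23509 counts in each of them. Control replicates 1 and 2 stood apart: counts in odorant and vomeronasal receptor genes, which the epidermis is not known to use, came to 1.61 and 3.19 per exonic kb there, against 0.0970 to 0.195 in the other 6 libraries. Neither targeted gene was lost from the counts over whole genes. Tfap2a was at 164.6, 140.3 and 210.1 CPM (the count divided by the library total and scaled to 1000000) in the controls and at 228.6, 213.2 and 309.2 CPM in the libraries labelled as double knockouts, and Tfap2b at 57.3, 86.6 and 71.03 against 53.8, 57.2 and 56.9 CPM. Neither passed the threshold (edgeR adjusted p 0.118 and 0.111). Tfap2a rose without control replicate 3 (log2 fold change, or log2FC, 0.72, edgeR adjusted p 0.0160) and without a filter on low counts. Every direction below is therefore that of libraries as labelled. Counts over a whole gene also hold reads from exons that a deletion leaves in place.

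AP-2 proteins bind GC-rich palindromes, written here as GCCNNNGGC or the same with 1 more base in the middle, and the bases before the start sites of the 10 genes were searched for these letters on both strands. RefSeq (GRCm38.p6) gave a start site for 9 of the 10. In the 250 bases before it, 4 of the 9 held a match: Alox12b, Elovl4, Nipal4 and Ugcg. Of all 32851 RefSeq promoter windows of that length, 22.97% held one. The windows of these 4 genes held 66.0% to 80.4% G and C, and that of Sdr9c7, which had no match, held 49.6%. Exons annotated in GENCODE M21 covered 83 bases of the Alox12b window, 149 of that of Nipal4 and all 250 of that of Ugcg. They covered none of the Elovl4 window. The start site used for Cyp4f39, which had no match, lay 15739 bases from the start of the gene as counted here. That of Ugcg lay 293 bases from it. The GRHL motif AACCGGTT was in none of the 9, and in 0.12% of all windows. The stretches below show the gene with the largest fall, Sdr9c7, and the matches in the other 4, each 5′ to 3′ on the strand of its gene, with AP-2 letters in capitals. The Ugcg stretch holds both spacings, which overlap. A match is a run of letters and was not tested for binding.
Sdr9c7, chr10:127898285-127898517, plus strand: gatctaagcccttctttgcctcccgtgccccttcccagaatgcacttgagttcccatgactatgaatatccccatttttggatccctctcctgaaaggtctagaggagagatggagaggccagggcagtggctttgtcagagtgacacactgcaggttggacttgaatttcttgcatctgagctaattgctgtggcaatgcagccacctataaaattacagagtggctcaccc
Elovl4, chr9:83806306-83806555, minus strand: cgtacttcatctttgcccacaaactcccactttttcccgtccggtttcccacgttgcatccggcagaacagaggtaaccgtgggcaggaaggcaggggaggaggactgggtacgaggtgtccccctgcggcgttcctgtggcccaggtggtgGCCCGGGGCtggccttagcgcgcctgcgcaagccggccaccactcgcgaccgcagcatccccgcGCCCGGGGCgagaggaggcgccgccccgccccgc
Ugcg, chr4:59189447-59189476, plus strand: agcgcgcGCCGAGTGGCCGGGGGCgcgcag
Alox12b, chr11:69157042-69157071, plus strand: tcacatccctcccgccccGCCAAGGGCagc
Nipal4, chr11:46166545-46166574, minus strand: ccctctctcttGCCCCTGGCacgggcggat
Nipal4, chr11:46166440-46166469, minus strand: cgcccggtgttGCCCAAGGCacagggtgac

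The comparison of the libraries labelled as double knockouts with the controls at 6 months asked whether the barrier lipid genes differ in adult epidermis in which both AP-2 genes are targeted. Sdr9c7, the dehydrogenase that acts on oxidized acylceramide, fell 2.42-fold, and Ugcg, the glucosylceramide synthase, fell 1.59-fold. The other 8 genes did not pass the threshold: 7 had fitted changes of -0.50 to -0.26 on the log2 scale, and Alox12b, the lipoxygenase of the first oxidation step, had 0.22. The median over the 10 genes was -0.38, and over the 17755 genes tested -0.04. Of the 10 genes 2 were lower past an adjusted p of 0.05 in edgeR's quasi-likelihood test and none was higher, while of all genes tested 14.9% passed it, 8.59% lower (1526 genes) and 6.26% higher (1111 genes). Scaled by total counts alone, 1327 genes were lower and 1376 higher, and the same number of the 10 genes passed the threshold. The libraries labelled as double knockouts lay below all 3 controls in CPM for 6 of the 10 genes, as for 16.3% of all genes tested. They lay above all controls for none of the 10, as against 22.5% of all genes tested, and 38.7% of all did not overlap in either direction. The fitted change was below 0 for 9 of the 10, as for 52.2% of all.

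**Figure D1:**
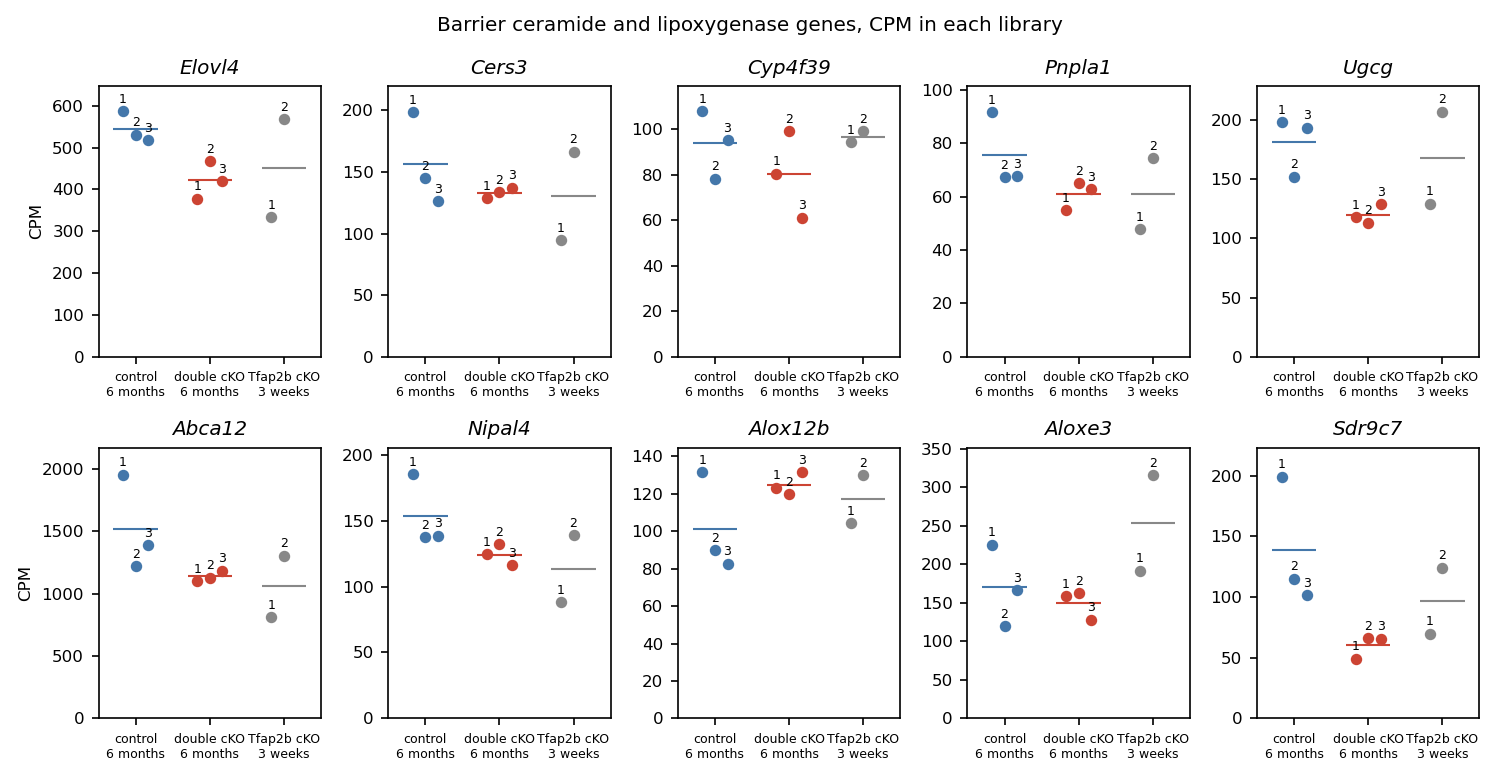
CPM of the 10 genes in each library, on axes that start at 0, with the replicate number beside each point and a bar at the group mean (3 controls, 3 libraries labelled as double knockouts, 2 Tfap2b knockout libraries). Control replicate 1 is the highest control in all 10 panels, and Sdr9c7 shows the widest gap between the groups at 6 months relative to its level.

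In all 10 genes control replicate 1 held the highest CPM of the 3 controls. The coefficient of variation over libraries was 6.71% to 38.2% among the controls and 3.30% to 23.6% among the libraries labelled as double knockouts, and it was larger among the controls for 8 of the 10 genes. Without control replicate 1 the median of the 10 fitted changes was -0.21, and the same 2 genes passed the threshold. Summed over the 10 genes, the controls held 3877, 2651 and 2879 CPM and the libraries labelled as double knockouts 2314, 2487 and 2434 CPM, so the sums did not overlap. These sums were weighted by Abca12, which made up 50.4%, 45.9% and 48.3% of them in the controls. In the libraries labelled as double knockouts it made up 47.5%, 45.4% and 48.6%. Taken singly, 4 of the 10 genes overlapped between the groups.

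Synthesis of acylceramide begins with the fatty acid. Elovl4 (ENSMUSG00000032262, chromosome 9, 83778692 to 83806277, minus strand, GRCm38), the elongase that makes the ultra-long chains, was at 586.6, 530.7 and 517.7 CPM in the controls and at 378, 467.6 and 419.1 CPM in the libraries labelled as double knockouts. Every one of the latter lay below every control. The log2FC was -0.45 (SE 0.14), with an edgeR adjusted p of 0.0540. Elovl4 passed the threshold in 4 alternatives: with at least 10 counts required in every library, in DESeq2, in limma-voom and with the receptor-gene background subtracted (adjusted p 0.0389, 0.0248, 0.0464 and 0.0343). In these alternatives 3 of the 10 genes were lower, and of all genes tested 9.99%, 12.3%, 6.65% and 8.19% were. Elovl4 did not pass it without a filter, with the replicate block or with all libraries in one fit (edgeR adjusted p 0.211, 0.107 and 0.179). Nor did it with any 1 library left out (log2FC -0.49 to -0.32, edgeR adjusted p 0.0590 to 0.231). Cyp4f39 (ENSMUSG00000061126, chromosome 17, 32468462 to 32492479, plus strand), the cytochrome P450 that hydroxylates the far end of the chain and the mouse counterpart of human CYP4F22, was at 107.9, 78.3 and 95.2 CPM in the controls and at 80.5, 99.06 and 61.1 CPM in the libraries labelled as double knockouts. The groups overlapped (log2FC -0.30, SE 0.19, edgeR adjusted p 0.312), and the log2FC was -0.11 without replicate 3 of the libraries labelled as double knockouts and -0.18 without control replicate 1. Cyp4f39 is 1 of a family of similar genes that can share reads.

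Cers3 (ENSMUSG00000030510, chromosome 7, 66743504 to 66823691, plus strand), the ceramide synthase that joins the ultra-long acid to the sphingoid base, was at 198.3, 145.0 and 126.1 CPM in the controls and at 128.6, 133.5 and 137.4 CPM in the libraries labelled as double knockouts. Its groups overlapped, with the lowest value in control replicate 3 (log2FC -0.31, SE 0.18, edgeR adjusted p 0.252). The fitted change was -0.09 without control replicate 1, and 0.02 against control replicate 3 alone, with both controls of higher receptor-gene counts left out. Pnpla1 (ENSMUSG00000043286, chromosome 17, 28858411 to 28890308, plus strand) encodes the transacylase that moves linoleate from triglyceride onto the ceramide. It was at 91.8, 67.2 and 67.7 CPM in the controls and at 54.97, 65.2 and 62.9 CPM in the libraries labelled as double knockouts, which all lay below the controls by a narrow margin (log2FC -0.38, SE 0.17, edgeR adjusted p 0.151). Without control replicate 1 the log2FC was -0.21. Exons of Pnpla1os overlap 644 bases of its exons on the opposite strand, and the use of strand in counting was not given in the sources used here.

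Ugcg (ENSMUSG00000028381, chromosome 4, 59189257 to 59222833, plus strand) adds glucose to ceramides, the form in which acylceramide is packed into lamellar granules. It was at 198, 152 and 193.4 CPM in the controls and at 118, 113.2 and 128.9 CPM in the libraries labelled as double knockouts. Every library labelled double knockout lay below every control. The log2FC was -0.67 (SE 0.14), with an edgeR adjusted p of 0.0160, lower in 3 of 3 libraries. With 1 library left out in turn it ranged from -0.78 to -0.54, and it no longer passed the threshold without replicate 1 or replicate 2 of the libraries labelled as double knockouts (edgeR adjusted p 0.103 and 0.0928) or with all 8 libraries in one fit (0.0539).

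The carriers come next. Abca12 (ENSMUSG00000050296, chromosome 1, 71242276 to 71414910, minus strand), the transporter that loads glucosylated acylceramide into lamellar granules, was at 1952, 1217 and 1390 CPM in the controls and at 1099, 1128 and 1184 CPM in the libraries labelled as double knockouts. The 3 libraries labelled as double knockouts differed little among themselves and lay below all controls, the nearest of which was replicate 2. The log2FC was -0.50 (SE 0.18, edgeR adjusted p 0.0937), and -0.26 without control replicate 1. Nipal4 (ENSMUSG00000020411, chromosome 11, 46148155 to 46166508, minus strand), a membrane protein also called ichthyin that is mutated in congenital ichthyosis, was at 185.4, 137.3 and 138.6 CPM in the controls and at 124.3, 132.1 and 116.1 CPM in the libraries labelled as double knockouts. Here too the groups did not overlap, but the change did not pass the threshold (log2FC -0.39, SE 0.15, edgeR adjusted p 0.117), and the log2FC was -0.22 without control replicate 1.

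The oxidation branch held both the largest fall and the only fitted rise of the 10. Alox12b and Aloxe3 are neighbours on chromosome 11, on the plus strand. Alox12b (ENSMUSG00000032807, 69156989 to 69169792) encodes 12R-lipoxygenase, which adds oxygen to the linoleate of acylceramide, and Aloxe3 (ENSMUSG00000020892, 69125896 to 69149115) encodes the enzyme that turns the resulting hydroperoxide into an epoxy alcohol. Alox12b was at 131.6, 89.9 and 82.7 CPM in the controls and at 123.3, 119.7 and 131.6 CPM in the libraries labelled as double knockouts. The latter lay above control replicates 2 and 3, and the highest of them was level with control replicate 1 (log2FC 0.22, SE 0.18, edgeR adjusted p 0.437). Without control replicate 1 the log2 fold change was 0.47, and it did not pass the threshold there either (edgeR adjusted p 0.0722). Aloxe3 was at 225.5, 119.3 and 166.6 CPM in the controls and at 158.7, 162.6 and 128.0 CPM in the libraries labelled as double knockouts, all within the range of the controls (log2FC -0.26, SE 0.22, edgeR adjusted p 0.430). Without control replicate 1 its fitted change was 0.0011.

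Sdr9c7 (ENSMUSG00000040127, chromosome 10, 127898518 to 127911761, plus strand) encodes the dehydrogenase that oxidizes the epoxy alcohol of acylceramide to an epoxy ketone, the step that follows the lipoxygenases. It was at 199.1, 115.1 and 101.3 CPM in the controls and at 49.1, 65.9 and 65.65 CPM in the libraries labelled as double knockouts. Control replicate 1 was far above the other controls, and the highest library labelled double knockout was well below the lowest control. The mean fell from 138.5 ± 52.95 to 60.2 ± 9.62 CPM (SD over 3 libraries each), lower in 3 of 3 libraries. The fitted log2FC, which also uses the TMM scaling, was -1.28 (SE 0.26, edgeR adjusted p 0.0151). Without control replicate 1 it was -0.91 and still past the threshold (edgeR adjusted p 0.0208). The call was lost without replicate 1 of the libraries labelled as double knockouts (-1.09, edgeR adjusted p 0.0713) and against control replicate 3 alone (-0.80, edgeR adjusted p 0.0968, with the lone control assumed to vary like the other group).

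**Figure D2:**
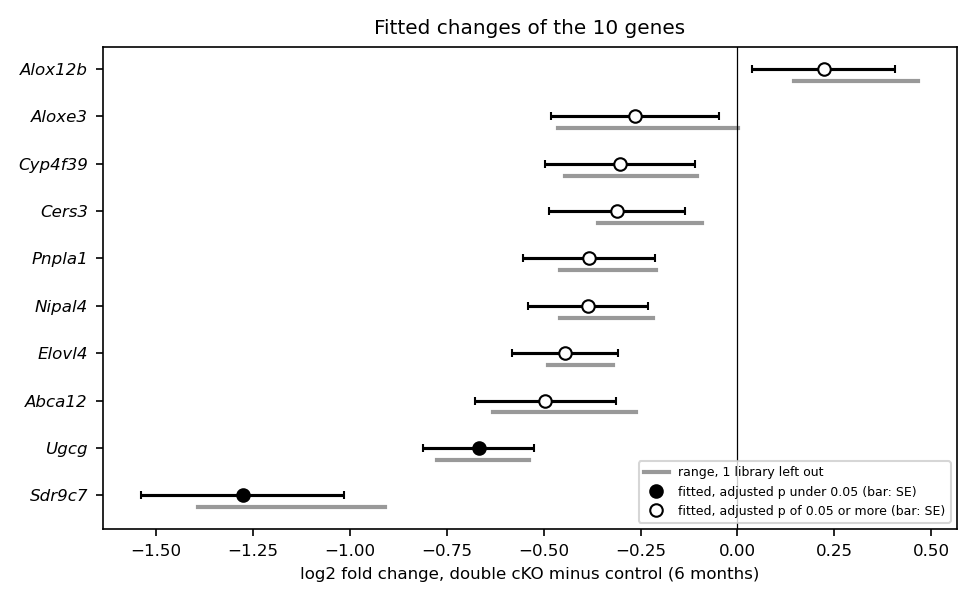
Fitted log2 fold change of each gene (circle, with its standard error) and the range when 1 of the 6 libraries at 6 months was left out (grey line). Only Sdr9c7 and Ugcg, the filled circles, passed the threshold, and Alox12b is the single gene whose value lies above 0.

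Counts of 1 library can be set against each other without any scaling between libraries. The ratio of Alox12b to Sdr9c7 counts was 0.661, 0.781 and 0.816 in the controls, against 2.51, 1.82 and 2.01 in the libraries labelled as double knockouts, so the groups were far apart. The ratio of Alox12b to Aloxe3 counts was 0.584, 0.754 and 0.496 in the controls, against 0.777, 0.736 and 1.03 in the libraries labelled as double knockouts, and these groups overlapped. The 4 ratios examined were chosen after the values of the genes were seen and were not tested. The other 2, Abca12 to Ugcg and Elovl4 to Cers3, overlapped between the groups as well.

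Barrier lipid genes are used mainly in the granular layer, and in bulk tissue fewer granular cells and less RNA per cell cannot be told apart. The markers of that layer went both ways. Of 19 granular and cornified layer genes 10 had fitted changes below 0 and 9 above, with a median of -0.16. Summed over the 19, the controls held 10647, 7265 and 8064 CPM and the libraries labelled as double knockouts 4911, 6253 and 6625 CPM. Abundant genes weighed most in this sum. The mean of Flg2 went from 2098 to 797.7 CPM, of Spink5 from 1298 to 675.7 and of Dsc1 from 1007 to 578. The mean of Cdsn went from 835.9 to 381.7 CPM, and of Ppl from 841.2 to 770.3. In that list 6 genes were lower past the threshold, none was higher and 13 did not pass it. Among the 6 were Flg2 (log2FC -1.47, edgeR adjusted p 0.00982), which encodes a filaggrin-like protein, and Spink5 (-1.02, edgeR adjusted p 0.00241), a protease inhibitor. Casp14, Evpl and Rptn lay above all controls without passing the threshold (0.86, 0.44 and 3.59, edgeR adjusted p 0.0734, 0.0715 and 0.127). These were 3 of the 19, beside 22.5% of all genes tested. Below all controls lay 7 of the 19, beside 16.3% of all genes tested. Rptn varied widely among the libraries labelled as double knockouts, at 76.8 ± 98.6 CPM (SD). Of 8 markers of the layer beneath 2 rose past the threshold and none fell, beside 6.26% higher among all genes tested. The 2 were Krt1 and Dsg1b (1.05 and 0.87, edgeR adjusted p 0.00810 and 0.00565), while Krt10 did not pass it (0.04, edgeR adjusted p 0.904). Of 9 basal keratinocyte genes 6 rose and none fell, with Krt5 at 0.90 and Col17a1 at 0.89 (edgeR adjusted p 0.00860 and 0.0178). The basal marker Krt15 had a log2FC of -1.39 (edgeR adjusted p 0.0513), with every library labelled as a double knockout below every control. Casp14, Evpl, Rptn, Krt1, Dsg1b and Krt15 were singled out after their values were seen. The part of these shifts in the barrier lipid genes was not tested.

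The levels were therefore also given per 1000 CPM of the granular and cornified layer list. That sum is weighted by abundant genes such as Flg2 and was not tested as a measure of granular cell number. On this scale Sdr9c7 was at 18.7, 15.8 and 12.6 in the controls and at 9.999, 10.5 and 9.91 in the libraries labelled as double knockouts. It was the only 1 of the 10 genes for which the libraries labelled as double knockouts still lay below all controls, as for 5.15% of all genes tested. Alox12b was at 12.4, 12.4 and 10.3 in the controls and at 25.1, 19.1 and 19.9 in the libraries labelled as double knockouts, all higher than any control. The same held for Cers3 and Pnpla1, so for 3 of the 10 genes, but 43.1% of all genes tested did so on this scale, where the sum in the divisor was itself lower. Ugcg was at 18.6, 20.9 and 24.0 in the controls and at 24.0, 18.1 and 19.5 in the libraries labelled as double knockouts, and its groups overlapped on this scale.

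**Figure D3:**
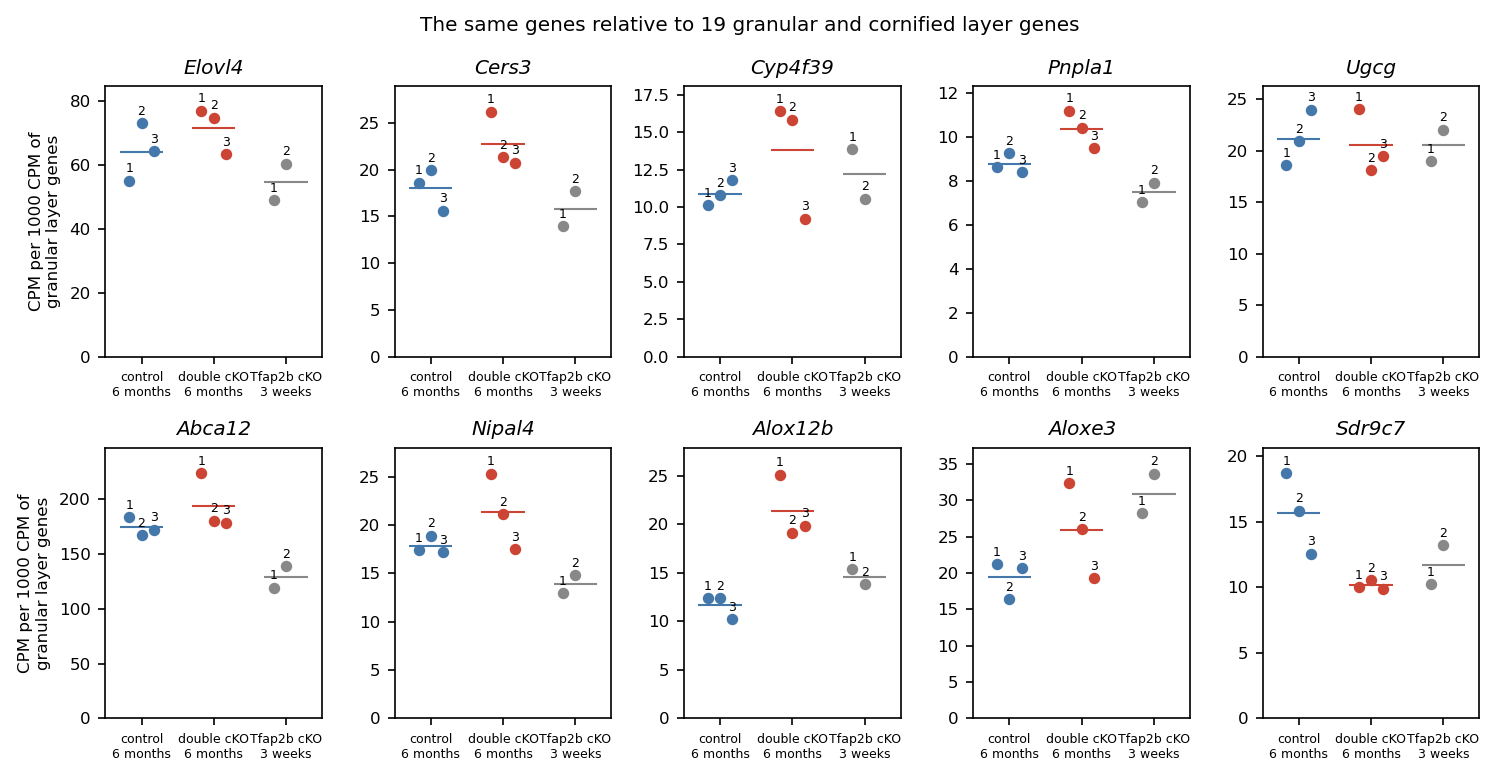
The same 10 genes as CPM per 1000 CPM of 19 granular and cornified layer genes, on axes that start at 0, with replicate numbers and group means. The libraries labelled as double knockouts lie below all controls for Sdr9c7 and above all controls for Alox12b, Cers3 and Pnpla1.

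Levels of different genes can be compared only per length of their exons. In CPM per exonic kb, Elovl4 was the highest of the 10 in the controls, at 180.1 ± 12.1 (SD, n = 3), followed by Abca12 at 102.6 ± 26.0, and neither overlapped with the next gene in the order. From Cyp4f39 at 58.7 ± 9.29 down to Pnpla1 at 16.9 ± 3.13 each gene overlapped with the next, so that neighbours in the order were not resolved, though the lowest control values of Cyp4f39 and Cers3 lay above the highest of Ugcg, Aloxe3 and Pnpla1. Sdr9c7, at 45.6 ± 17.4, stood in the middle of that order. In the libraries labelled as double knockouts Elovl4 (139.3 ± 14.8) and Abca12 (76.8 ± 2.91) led again, Alox12b came next at 51.4 ± 2.51, overlapping with Cyp4f39, and Sdr9c7 was next to last at 19.8 ± 3.17. There Sdr9c7 did not overlap with Pnpla1 below it. Its highest value, 21.68, was almost level with the lowest of Ugcg above it, 21.71, so the order of Sdr9c7 and Ugcg is uncertain.

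**Figure D4:**
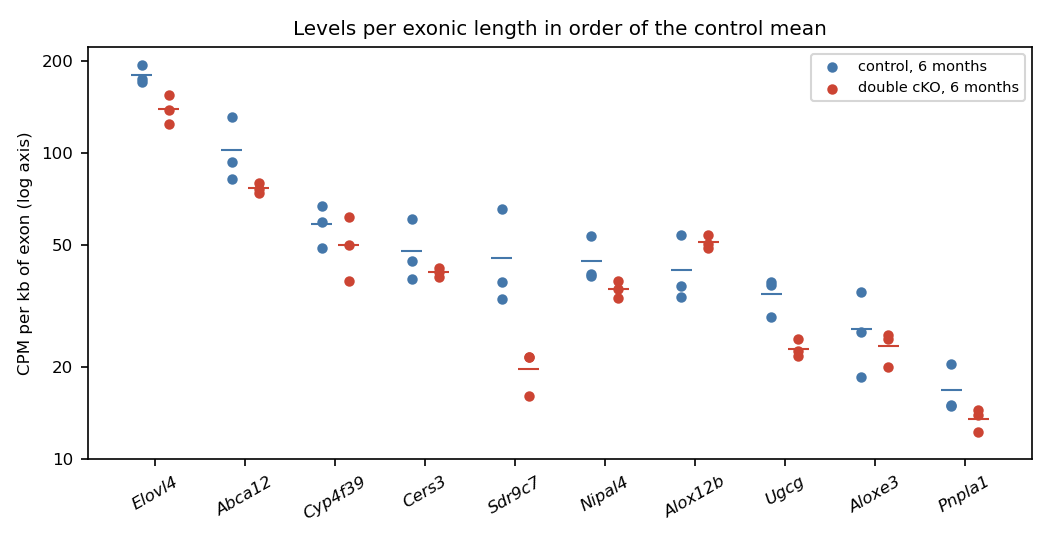
CPM per kb of exon on a log axis, genes in order of the control mean, with 3 libraries per group and a bar at each mean. Elovl4 and Abca12 are the highest in both groups, and Sdr9c7 moves from the middle of the order towards its low end.

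The 2 Tfap2b knockout libraries, from mice of 3 weeks, had no control of that age with counts and were compared with nothing. Replicate 2 was above replicate 1 in all 10 genes, for example with 567.2 against 333.5 CPM of Elovl4, 1303 against 811.1 CPM of Abca12 and 124.1 against 69.7 CPM of Sdr9c7. Their Alox12b values were closer, at 104.5 and 130.1 CPM, and those of Cyp4f39 nearly equal, at 94.4 and 99.2 CPM. Replicate 1 held 2611 CPM of 7 dermal fibroblast genes and 14539 CPM of 10 sebaceous gland genes, against 17.4 and 1337 CPM in replicate 2. At 6 months the fibroblast list came to 53.8 to 159.3 CPM in the controls and 12.2 to 23.6 CPM in the libraries labelled as double knockouts, and the sebaceous list to 1377 to 1547 and 777.8 to 904.7 CPM. The sebaceous sums differed mainly by Scd1, whose group means were 780.2 and 192.7 CPM. Those of Fasn were 401.8 and 371.6 CPM, and those of Acsbg1 212 and 238.2 CPM. Mc5r, Awat1 and Awat2 were at mean levels of 2.29 CPM or less in both groups. Of the 8 tested sebaceous genes 2 were lower past the threshold and none was higher. The hair follicle list came to 69.4 to 95.3 against 25.3 to 35.9 CPM, and the leukocyte list to 289.3 to 464.7 against 338.2 to 513.2 CPM. In the leukocyte sums S100a8 had means of 0.80 CPM in the controls and 66.7 ± 91.6 CPM (SD) in the libraries labelled as double knockouts. For S100a9 the means were 0.54 and 27.0 ± 38.1 CPM. Of the 9 leukocyte genes 4 had fitted changes above 0 and 5 below, and none passed the threshold. Of all the markers at most 2 of a list were at 0 in a library. The part of these cell types in the values of the 10 genes was not tested.

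Beyond the 10 genes, 66 genes in 6 lists around the same pathway were examined, of which 61 passed the filter on low counts. In the libraries labelled as double knockouts 8 were lower and 3 higher past the threshold, beside the 8.59% lower and 6.26% higher among all genes tested. In the list of sphingoid base and ceramide synthesis 1 of 15 tested genes fell and 1 rose. Sptlc3, a subunit of serine palmitoyltransferase, the enzyme that starts the sphingoid base, was at 178.3, 143.1 and 139.5 CPM in the controls and at 80.6, 98.5 and 55.2 CPM in the libraries labelled as double knockouts (log2FC -1.05, SE 0.21, edgeR adjusted p 0.0121). Degs1, the desaturase that completes ceramide, went the other way, from 166.5, 141.5 and 126.8 CPM to 290, 200.4 and 292.7 CPM (0.77, SE 0.18, edgeR adjusted p 0.0217). In neither gene did the groups overlap. Sptlc3 lost the threshold without replicate 1 of the libraries labelled as double knockouts (edgeR adjusted p 0.0626), and Degs1 without that replicate, replicate 3 or control replicate 2 (0.0815, 0.0567 and 0.0724).

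Among 13 tested genes of fatty acid elongation and activation 1 rose and none fell. This was the elongase Elovl7, at 76.7, 90.7 and 89.0 CPM in the controls and at 171.7, 157 and 157.4 CPM in the libraries labelled as double knockouts (log2FC 0.85, SE 0.13, edgeR adjusted p 0.00392). Of 5 genes that handle the triglyceride from which linoleate is taken, 2 fell: Pnpla2, a triglyceride lipase (-0.82, SE 0.17, edgeR adjusted p 0.0153), and Dgat2, which makes triglyceride (-0.67, SE 0.17, edgeR adjusted p 0.0300). Pnpla2 was at 719.1 CPM in replicate 1 of the Tfap2b knockout libraries, the library with the high sebaceous list, against 58.4 CPM in replicate 2. Of 10 genes of the extracellular processing list 2 fell, Sgms2, a sphingomyelin synthase (-0.92, edgeR adjusted p 0.0241), and Gpx4, which reduces lipid hydroperoxides (-1.18, edgeR adjusted p 0.0279). Gpx4 was at 4.70 to 15.6 CPM in the 6 libraries at 6 months and has a pseudogene copy that can take its reads, so its value is uncertain. Without replicate 1 of the libraries labelled as double knockouts Elovl7 still passed the threshold, and Pnpla2, Dgat2, Sgms2 and Gpx4 did not (edgeR adjusted p 0.0932, 0.150, 0.0606 and 0.130). Leaving out control replicate 2 ended the same 4 calls (0.0518, 0.0548, 0.0869 and 0.0788), and at least 1 other library did so for each of them. With all 8 libraries in one fit Pnpla2, Dgat2 and Gpx4 lost the threshold (edgeR adjusted p 0.532, 0.0772 and 0.188), and Dgat2 also with the replicate block (0.0532).

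Of 7 tested genes in the list of other lipoxygenases and epoxide hydrolases 2 fell, both lipoxygenases. Alox12e, on the minus strand of chromosome 11 at 70315610 to 70322628, was at 225.6, 328.9 and 421.4 CPM in the controls and at 112.8, 205.4 and 90.8 CPM in the libraries labelled as double knockouts (log2FC -1.33, SE 0.33, edgeR adjusted p 0.0323). Alox12, at 70241457 to 70255353 on the same strand, went from 32.6, 35.3 and 45.1 to 16.4, 23.7 and 11.04 CPM (-1.22, SE 0.27, edgeR adjusted p 0.0178). In both genes control replicate 1 was the lowest of the controls, whereas it was the highest for all 10 barrier genes, and replicate 2 was the highest of the libraries labelled as double knockouts. Alox12e lost the threshold without control replicate 2 or 3 or without replicate 1 or 3 of the libraries labelled as double knockouts (edgeR adjusted p 0.0826, 0.0645, 0.129 and 0.0819), and Alox12 without control replicate 2 or that replicate 1 or 3 (0.0519, 0.0906 and 0.0506). The other 5 tested genes did not pass the threshold. The differences between these changes and those of Alox12b or Aloxe3 were not tested.

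Of 11 tested regulators of barrier lipid genes 1 fell and 1 rose. Ovol1, a zinc finger repressor of suprabasal keratinocytes, went from 214.3, 128.4 and 142.4 CPM to 72.6, 89.7 and 96.6 CPM (log2FC -0.98, SE 0.21, edgeR adjusted p 0.0168), and 690 bases of its exons are shared with Gm31166 on the opposite strand. Ppard, a nuclear receptor for fatty acids, went from 40.4, 33.0 and 49.8 CPM to 83.5, 68.7 and 87.3 CPM (0.88, SE 0.18, edgeR adjusted p 0.0133). Both lost the threshold without replicate 1 of the libraries labelled as double knockouts (0.0875 and 0.0653), and Ovol1 also without replicate 2 (0.0540) and with all 8 libraries in one fit (0.0743).

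**Figure D5:**
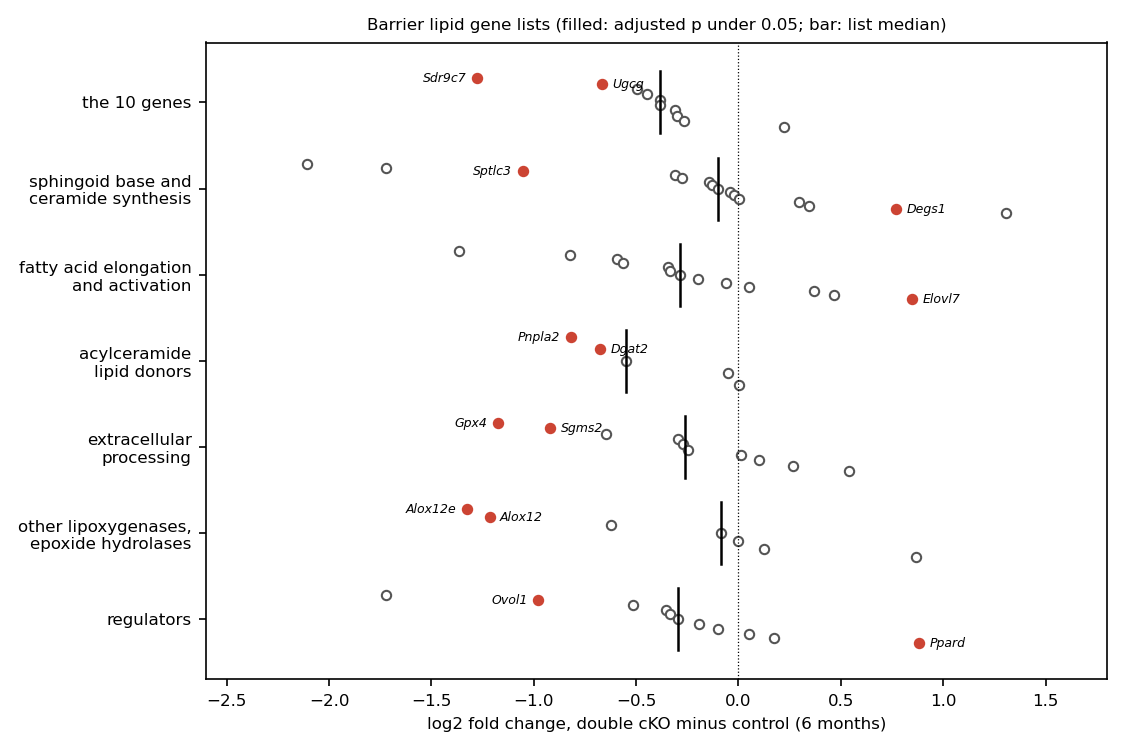
Fitted log2 fold changes of the 10 genes and of 6 lists of related genes, 1 circle per tested gene, filled and named where the adjusted p was under 0.05, with a bar at each list's median. The 10 genes sit in a narrow band below 0 apart from Sdr9c7 and Alox12b, while the named genes of the other lists lie above 0 (Elovl7), below it (3 lists) or on both sides (2 lists).

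The medians of the 6 lists were -0.10 for ceramide synthesis, -0.29 for elongation, -0.55 for the lipid donors, -0.26 for extracellular processing, -0.09 for the other lipoxygenases and epoxide hydrolases and -0.30 for the regulators, beside -0.38 for the 10 genes. Over the 8 libraries genes outside all lists whose log2 CPM followed the mean profile of the 10 closely were Rab9, Tab3, Zc3hav1 and Arhgef26 (Pearson's r 0.964 to 0.971). These correlations rest on 8 libraries that differ in genotype, age and depth, and they are a description. None of these 4 genes passed the threshold at 6 months.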

How the data were processed

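RNA of 21 epidermal samples was sequenced as paired 150 bp reads after ribosomal RNA depletion, per the labels' protocols. The authors deposited whole-number counts per Ensembl gene, not normalized. Per the submitters' processing notes, Trimmomatic 0.36, STAR 2.5.2b and featureCounts of Subread 1.5.2 were used, and the notes name the builds GRCh38 and GRCm38 without saying where each was used. Settings, strand and multi-mapping were not given in the sources used here. Of the identifiers 48970 (99.3%) were in GENCODE M21 (GRCm38), all on the same chromosome, so coordinates were read as GRCm38. Samples were grouped by title. In 13 files every count was 0.

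CPM was computed from library totals. The groups at 6 months (3 against 3, separate animals not stated, so p-values measure the spread between these samples) were tested with edgeR 4.0.16 in R 4.3.3: filterByExpr, TMM, glmQLFit (robust), glmQLFTest, a prior count of 2, Benjamini-Hochberg over all genes tested, threshold 0.05. TMM factors were 0.967 to 1.04. DESeq2 1.42.0 and limma 3.58.1 (voom) were alternatives. The test was tried on simulated data with 200 genes changed 4-fold, of which 190 were tested. It called 134 of these (70.5%), none in the wrong direction, and 20 unchanged genes. Smaller changes were not simulated.

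The 10 genes and all lists were chosen with earlier results of these data known. Named beside the 10 genes were up to 4 genes of each related list past the threshold, by size of change, examples of marker lists by mean CPM, and the 5 genes most like the mean profile, of which 1 is not reported here. Promoters came from RefSeq (GRCm38.p6). The bases printed lie outside annotated exons or span 30 bases at most.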

Additional observations from a re-analysis of the deposited data

How the results depend on the processing

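The 17 alternatives gave 0 to 3 of the 10 genes past the threshold, never one as higher. The receptor-gene subtraction took from each gene the counts per exonic kb of 1418 receptor genes. All 10 genes kept the direction of their change in 15 alternatives, and Aloxe3 reversed without control replicate 1 (0.0011, range with 1 library left out -0.46 to 0.0011) and Cers3 without control replicates 1 and 2 together (0.023), an alternative chosen after seeing the data. In that alternative 1 of the 10 genes (Ugcg, -0.74), 1 of the 61 related genes and 437 of all genes passed the threshold. With all libraries in one fit 1 of the 10 genes, 7 related genes and 1784 of all genes passed it. Against a fold change of 1.5 the counts were 0, 0 and 585. Without a filter on low counts 17 related genes and 4809 of all genes passed it. With 1 library left out, the counts were 0 to 2 of the 10 genes (0 without replicate 1 and 1 without replicate 2 of the libraries labelled as double knockouts), 1 to 21 related genes (1 without that replicate 1, 21 without control replicate 3) and 668 to 7544 of all genes, against 2637. Scaled by total counts alone, 1376 of all genes were higher and 1327 lower, against 1111 and 1526. The labels do not state that the replicate numbers pair the samples. The deviations of same-numbered libraries from their group means correlated at 0.03, -0.16 and -0.06 across genes. With 3 libraries per group these deviations constrain each other, so the values cannot exclude a pairing. With the replicate block 2 of the 10 genes, 12 related genes and 1729 of all genes passed the threshold. The causes of these differences were not tested.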
